A study of Mus musculus with 9 samples.

Results

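The genes of the Wnt and the TGF-beta/BMP signalling pathways were examined in 3 mouse tumour lines. Members were all rows of the count table whose gene symbol begins with, or equals, the name of a Wnt ligand, Frizzled receptor, Lrp5 or Lrp6, Dkk, Sfrp, Dvl, Axin, beta-catenin or TCF/LEF gene, or of a TGF-beta, BMP, GDF, inhibin, activin receptor, Ltbp, SMAD, Smurf, Bambi, Ski or Skil gene. This gave 58 of the 11046 genes in the table, of which 23 belonged to the Wnt pathway, 32 to the TGF-beta and BMP pathways, and 3 matched by symbol while their products act elsewhere (Ctnnbl1, Bmp2k and Tgfb1i1). The same rule matches 116 protein-coding symbols in RefSeq's mouse gene list, and the other 58, among them 15 of the 19 Wnt genes and 4 of the 10 Frizzled genes, were not analysed here.

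The lines were 482N1, labelled as a lung non-small-cell carcinoma, B16F10-BrM, labelled as a melanoma with mutant BRAF, and E0771-BrM, labelled as a triple negative breast cancer, where BrM stands for brain metastatic. All were labelled wild type and untreated, B16F10-BrM with its mutant BRAF label included. The BRAF status was not tested here. The lines grew in culture, where DMEM was the medium of 482N1 and B16F10-BrM, and RPMI 1640 with hepes that of E0771-BrM. The medium and the line cannot be told apart for E0771-BrM. Each line had 3 libraries (A, B and C) of poly(A)-selected RNA made with a strand-specific kit. The labels do not say whether these were separate cultures, and the SDs and p-values below measure only the spread between libraries.

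Totals ran from 7332390 to 9293348 counts per library. Levels are counts per 1000000 (CPM) scaled by TMM factors, given as mean ± SD of 3 libraries. Fold changes are ratios of mean CPM or log2 coefficients of edgeR's fit with an SE. That SE was derived from the test, as the absolute log2 value divided by the square root of its F statistic. Log2 values are signed as B16F10-BrM or E0771-BrM minus 482N1, or E0771-BrM minus B16F10-BrM. The adjusted p is that of edgeR's quasi-likelihood F test, two-sided, with Benjamini-Hochberg adjustment over 11037 genes, and a gene was called at 0.05. Where a line had no count of a gene, the fold is a lower bound against 3 counts over its libraries (0.125, 0.115 and 0.124 CPM in 482N1, B16F10-BrM and E0771-BrM). With 1 to 3 counts, a ratio is given with its 95% counting interval. Bounds and intervals cover counting error only. No gene in the table had a third-highest count below 8, so a member without counts in 1 line was listed only through the other lines, and it had to differ.

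Of the melanocyte markers, 5 of 8 were in the table (Dct, Pmel, Tyrp1, Mitf and Gpnmb), and their summed level was 24630 to 25484 CPM in B16F10-BrM. In 482N1 the sum was 27.9 and 28.1 CPM in libraries A and C and 2.77 in B, and in E0771-BrM it was 162, 103 and 137 CPM in A, B and C. Summed over the pigment genes Dct, Pmel and Tyrp1 alone, libraries A and C of 482N1 held 0.107% and 0.110% of the mean B16F10-BrM level and those of E0771-BrM 0.245% and 0.187%, against 0.00787% and 0.0202% in library B of the lines. The part of this trace in single results was not tested, and values of a fit that keeps library B alone of 482N1 and E0771-BrM, the B-only fit, are given, here or among the results of other processing, where they end a call or move a value by more than 1.5 times. The epithelial keratins Krt8 and Krt18 (2 of 6 epithelial markers measured) summed to 7289 to 7908 CPM in 482N1, 171 to 208 in E0771-BrM and 0 to 0.125 in B16F10-BrM. Fibroblast markers (2 of 7 measured) stayed at or below 2.66 CPM in every library. Myeloid markers (Cd68 and Cd14, 2 of 6) summed to 24.7 to 34.2 CPM in 482N1, 0.502 to 0.625 in B16F10-BrM and 21.9 to 27.3 in E0771-BrM. Between E0771-BrM and 482N1 they went opposite ways, with 1 called higher and 1 lower. Both were called lower in B16F10-BrM than in either other line. They were thus lowest in the line that lacked the most ligands below, and their part in those results was not tested. Lung epithelial markers (Abca3, Ctsh, Foxa1 and Etv5, 4 of 9) summed to 209 to 245 CPM in 482N1 and at most 38.1 in the other lines. Mammary markers (Gata3, Erbb2 and Areg, 3 of 8) summed to 47.9 to 64.2 CPM in E0771-BrM and 91.7 to 109.6 in 482N1, so they did not set the breast line apart, and the surfactant genes, Nkx2-1, Esr1, Krt5 and Krt14 were not analysed here.

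Wnt proteins are secreted ligands that bind Frizzled receptors together with Lrp5 or Lrp6. Through Dishevelled proteins this stops the Axin-containing complex from destroying beta-catenin, which then works with TCF/LEF factors in the nucleus, and a beta-catenin-independent branch steers cell polarity and movement. TGF-beta, activins and BMPs are secreted dimers, held in the matrix by latent TGF-beta binding proteins in the case of TGF-beta, and bind pairs of type I and type II receptor kinases. These phosphorylate SMAD2 and SMAD3 (TGF-beta and activin) or SMAD1 and SMAD5 (BMP), which join SMAD4 and act on genes, while SMAD7, Smurf ligases, Ski and Skil restrain the pathway.

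The members took 0.271% to 0.289% of all counts in the 482N1 libraries, 0.211% to 0.224% in B16F10-BrM and 0.140% to 0.148% in E0771-BrM. The ribosomal RNA Rn18s, which poly(A) selection should leave low, also took most in 482N1, at 11.6% to 13.1% of all counts against 6.40% to 7.99% and 6.83% to 8.36%, and its part in the results was not tested. Single genes weigh heavily in the sums of members. In library A, Ctnnb1 alone gave 5193 of 24879 member counts in 482N1, 8482 of 19135 in B16F10-BrM and 1617 of 10846 in E0771-BrM. B16F10-BrM lacked 7 secreted factors, which had no count in its 3 libraries: the Wnt ligands Wnt5a, Wnt7b and Wnt10b, the antagonist Dkk2, the activin subunit Inhba, and Bmp4 and Bmp7. Over all genes tested, 1.84% had no count in that line. E0771-BrM had no count of 2 members, the receptors Fzd3 and Fzd7 (0.834% of all genes had none there), and 482N1 had counts of all 58 (0.417% of all genes had none there).

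RefSeq promoter windows, 250 bases before a gene's start on build GRCm38.p6, were at hand for 38 of the 58 members. Shown here are those of Inhba, Bmp4 and Dkk2, which share the pattern of no count in B16F10-BrM and the highest level in 482N1, and that of Tgfb2, which had the opposite order. They read 5′ to 3′ toward the start, at chr13:16011601-16011850 (plus strand) for Inhba, chr14:46390670-46390919 (minus strand) for Bmp4, chr3:132085042-132085291 (plus strand) for Dkk2 and chr1:186705990-186706239 (minus strand) for Tgfb2, and capitals mark the E-box CACGTG.
Inhba: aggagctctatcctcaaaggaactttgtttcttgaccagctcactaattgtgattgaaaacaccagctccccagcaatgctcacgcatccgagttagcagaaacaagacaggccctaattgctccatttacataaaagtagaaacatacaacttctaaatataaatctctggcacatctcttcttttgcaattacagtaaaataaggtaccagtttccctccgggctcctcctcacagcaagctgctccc
Bmp4: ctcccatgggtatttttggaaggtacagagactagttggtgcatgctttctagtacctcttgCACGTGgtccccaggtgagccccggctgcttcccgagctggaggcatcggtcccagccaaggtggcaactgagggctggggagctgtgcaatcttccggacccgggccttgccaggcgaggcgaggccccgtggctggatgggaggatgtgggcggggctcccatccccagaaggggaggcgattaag
Dkk2: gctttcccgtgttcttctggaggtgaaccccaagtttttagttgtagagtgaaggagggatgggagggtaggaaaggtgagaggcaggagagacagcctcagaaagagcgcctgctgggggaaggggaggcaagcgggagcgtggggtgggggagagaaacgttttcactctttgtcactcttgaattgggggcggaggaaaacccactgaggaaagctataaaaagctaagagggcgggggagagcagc
Tgfb2: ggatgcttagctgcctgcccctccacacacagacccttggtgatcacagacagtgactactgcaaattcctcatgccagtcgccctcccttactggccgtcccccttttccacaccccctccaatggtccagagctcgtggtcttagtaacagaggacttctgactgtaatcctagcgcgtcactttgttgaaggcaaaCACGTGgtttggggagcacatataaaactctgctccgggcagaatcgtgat

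The E-box lay at bases -188 to -183 from the start in Bmp4 and at -51 to -46 in Tgfb2, and neither Inhba nor Dkk2 held it. The windows differed in base composition, with 3 CpG dinucleotides and 43.2% G and C in Inhba, 11 and 63.2% in Bmp4, and 7 and 55.6% in Dkk2, against medians of 6 and 52.4% over all 32851 RefSeq windows. Tgfb2 had 8 CpG and 53.6%. Both strands were searched for 5 motifs. The TCF/LEF site CTTTGAT, present in 3.21% of all windows, and the SMAD palindrome GTCTAGAC, present in 0.167%, were in none of the 49 windows of members. The AP-1 site TGANTCA was in 2.04% of member windows (Dvl2) and 6.75% of all windows, and CACGTG was in 8.16% of member windows (Acvr1b, Bmp4, Dvl2 and Tgfb2) and 6.02% of all. The GC-rich SMAD-binding sequence GGCGCC was in 32.7% of member windows, from 14 genes, against 9.59% of all, and in none of the 4 printed. The 14 genes include Bmp2k, which belongs to neither pathway, and the 49 member windows came from 38 genes. GGCGCC consists of G and C alone and holds a CpG. The windows compared were not matched in base composition, and its part in this difference was not tested. These are matches of letters and say nothing of binding.

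Among the Wnt ligands, 482N1 had high Wnt7b and Wnt5a, B16F10-BrM had neither, and E0771-BrM had low levels of both together with Wnt10b. Wnt7b, a ligand of epithelia and of brain vessel formation, was at 192, 146 and 177 CPM in libraries A, B and C of 482N1, at 0 in all 3 of B16F10-BrM and at 10.02, 11.04 and 11.6 CPM in E0771-BrM. No library of one line reached into the range of another. Wnt7b was at least 1496-fold higher in 482N1 than in B16F10-BrM (edgeR adjusted p = 1.46e-36) and 15.8-fold higher than in E0771-BrM (log2 fold change -3.98 ± 0.12 (SE), edgeR adjusted p = 5.06e-31), which in turn was at least 94.9-fold above B16F10-BrM (edgeR adjusted p = 7.2e-21). Wnt5a, the main ligand of the beta-catenin-independent branch, followed the same order, at 70.04, 67.6 and 67.4 CPM in 482N1, at 0 in B16F10-BrM and at 10.02, 7.56 and 7.98 CPM in E0771-BrM. The 3 lines again did not overlap, and in such bulk RNA fewer cells with a transcript and less of it per cell cannot be told apart. Its level in 482N1 was at least 596-fold higher than in B16F10-BrM (edgeR adjusted p = 1.76e-32) and 8.02-fold higher than in E0771-BrM (log2 fold change -3.004 ± 0.13 (SE), edgeR adjusted p = 1.08e-24), and E0771-BrM was at least 74.3-fold above B16F10-BrM (edgeR adjusted p = 1.15e-19).

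Wnt10b and Wnt10a, ligands of the beta-catenin branch, were low wherever they were found. Wnt10b was at 3.55, 4.20 and 2.99 CPM in E0771-BrM, at 0.129, 0.602 and 0 CPM in 482N1 (6 counts in all) and at 0 in B16F10-BrM. All E0771-BrM libraries lay above all others, whereas 482N1 and B16F10-BrM overlapped at 0. E0771-BrM was at least 31.2-fold above B16F10-BrM (edgeR adjusted p = 1.09e-10) and 14.7-fold above 482N1 (log2 fold change 3.76 ± 0.54 (SE), edgeR adjusted p = 3.32e-08). Without library B of 482N1 the log2 value of the latter was 5.51, and in the B-only fit 2.77. Between 482N1 and B16F10-BrM the call (edgeR adjusted p = 0.0194, at least 2.12-fold) was lost without library B of 482N1 (adjusted p = 0.248) and without library A of B16F10-BrM (0.0502), and its fitted log2 value, which rests on the prior count edgeR adds, went from -4.13 to -5.40 in the B-only fit. Wnt10a had 1 count in 482N1, in library A, and was at 1.496 ± 0.745 CPM in B16F10-BrM and 1.62 ± 0.787 in E0771-BrM. Its ratios to 482N1 were 36.6 (95% counting interval 6.21 to 1483) in B16F10-BrM and 38.5 (95% counting interval 6.52 to 1561) in E0771-BrM, both called (edgeR adjusted p = 6.58e-06 and 4.53e-06). Leaving out that library left no count in 482N1, and the fitted log2 values, which then rest on the prior count edgeR adds, moved from 4.75 to 6.68 and from 4.84 to 6.76 (to 6.72 and 5.65 in the B-only fit). The brain metastatic lines did not differ by the test in Wnt10a (log2 fold change 0.08 ± 0.44 (SE), edgeR adjusted p = 0.869).

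The secreted antagonists split between the lines. Dkk2, which binds Lrp5 and Lrp6, was at 29.8, 24.8 and 22.8 CPM in 482N1, at 0 in B16F10-BrM and at 6.73, 5.999 and 6.86 CPM in E0771-BrM. This was the order of Wnt5a and Wnt7b, with no overlap between lines. Dkk2 in 482N1 was at least 225-fold above B16F10-BrM (edgeR adjusted p = 4.98e-25) and 3.95-fold above E0771-BrM (log2 fold change -1.98 ± 0.18 (SE), edgeR adjusted p = 8.35e-14), and E0771-BrM was at least 56.9-fold above B16F10-BrM (edgeR adjusted p = 8.59e-17). Dkk3, a divergent member of the Dickkopf family that does not act on Lrp6 as its relatives do, was at 36.8, 38.9 and 37.3 CPM in B16F10-BrM, 1.42, 2.29 and 0.127 in 482N1 and 0.127, 0.240 and 0 (3 counts) in E0771-BrM. B16F10-BrM stood far above both other lines, which overlapped each other. It was 29.5-fold above 482N1 (log2 fold change 4.85 ± 0.27 (SE), edgeR adjusted p = 6.16e-17), and its ratio to E0771-BrM was 304 (95% counting interval 104 to 1475) (edgeR adjusted p = 2.55e-18). Between 482N1 and E0771-BrM the ratio was 10.5 (95% counting interval 3.26 to 53.5) (log2 fold change -3.23 ± 0.78 (SE), edgeR adjusted p = 0.000417). Dropping library B of 482N1 moved the log2 value of B16F10-BrM against 482N1 to 5.59 and that of E0771-BrM against 482N1 to -2.49. Dropping library B of E0771-BrM moved its values to -4.07 against 482N1 and -8.91 against B16F10-BrM. In the B-only fit B16F10-BrM was at 4.03 against 482N1, and E0771-BrM at -7.21 against B16F10-BrM.

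**Figure D1:**
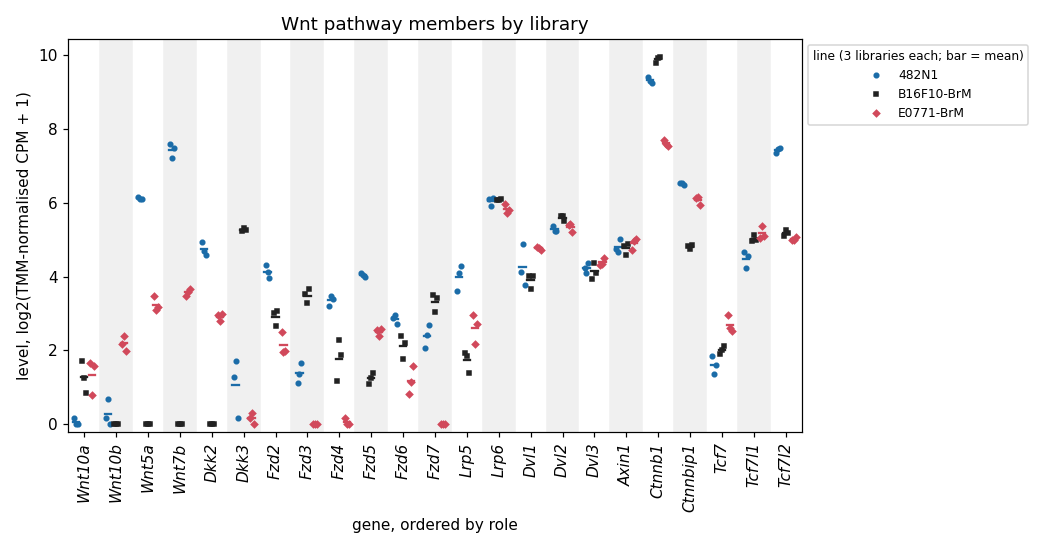
Level of each of the 23 Wnt pathway genes (x axis, ordered from ligands to nuclear factors) as log2 of TMM-normalised CPM plus 1 (y axis) in the 3 libraries of each line, with a bar at the mean of those log values. Wnt5a, Wnt7b and Dkk2 sit at 0 in B16F10-BrM and Fzd3 and Fzd7 at 0 in E0771-BrM, while Lrp6 and Axin1 lie close together in all 3 lines.

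All 8 Wnt receptor and co-receptor genes were lower in E0771-BrM than in 482N1, where 40.4% of all genes tested were lower. Fzd7 was at 10.3, 7.15 and 9.67 CPM in B16F10-BrM, 3.22, 4.33 and 5.45 in 482N1 and 0 in every E0771-BrM library. Its libraries did not overlap between lines. B16F10-BrM was 2.09-fold above 482N1 (log2 fold change 1.06 ± 0.24 (SE), edgeR adjusted p = 0.000112), and E0771-BrM was at least 73.1-fold below B16F10-BrM (edgeR adjusted p = 5.08e-17) and at least 35.03-fold below 482N1 (edgeR adjusted p = 7.32e-13). Fzd3, a receptor of axon guidance and planar polarity, had the same order, at 10.5, 8.66 and 11.7 CPM in B16F10-BrM, 1.16, 1.56 and 2.15 in 482N1 and 0 in E0771-BrM. Here too the lines were separate. The gene was 6.32-fold higher in B16F10-BrM than in 482N1 (log2 fold change 2.65 ± 0.28 (SE), edgeR adjusted p = 1.12e-11) and at least 83.02-fold and at least 13.1-fold lower in E0771-BrM than in B16F10-BrM (edgeR adjusted p = 8.6e-18) and 482N1 (edgeR adjusted p = 5.52e-08).

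Fzd4, the Norrin receptor of vessels, was at 8.25, 10.1 and 9.51 CPM in 482N1, at 1.25, 3.89 and 2.68 in B16F10-BrM and at 0.127, 0 and 0 in E0771-BrM, where it had 1 count. The order 482N1, B16F10-BrM, E0771-BrM held without overlap. 482N1 was 3.56-fold above B16F10-BrM (log2 fold change -1.86 ± 0.28 (SE), edgeR adjusted p = 6.53e-08). Against E0771-BrM, the ratios were 226 (95% counting interval 40.1 to 8952) for 482N1 (edgeR adjusted p = 4.72e-16) and 61.2 (95% counting interval 10.6 to 2452) for B16F10-BrM (edgeR adjusted p = 7.08e-09). Without the E0771-BrM library that held the count (A), fitted log2 values that rest on edgeR's prior count went from -7.37 to -9.27 and from -5.51 to -7.41, and the B-only fit likewise held no count of it in E0771-BrM. Fzd5 was at 15.99, 15.5 and 14.96 CPM in 482N1, at 1.15, 1.38 and 1.63 in B16F10-BrM and at 4.82, 4.20 and 4.99 in E0771-BrM, and so was lowest in the melanoma line, without overlap. It was 11.2-fold lower in B16F10-BrM than in 482N1 (log2 fold change -3.48 ± 0.24 (SE), edgeR adjusted p = 7.09e-18), 3.32-fold lower in E0771-BrM (log2 fold change -1.73 ± 0.20 (SE), edgeR adjusted p = 9.88e-11), and 3.37-fold higher in E0771-BrM than in B16F10-BrM (log2 fold change 1.75 ± 0.29 (SE), edgeR adjusted p = 4.69e-07). Fzd2 (16.5 ± 2.13, 6.60 ± 1.17 and 3.52 ± 1.02 CPM in 482N1, B16F10-BrM and E0771-BrM) and Fzd6 (6.21 ± 0.589, 3.42 ± 0.958 and 1.32 ± 0.625) both fell in that order with every pair called.

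The co-receptor Lrp5 was at 11.2, 16.01 and 18.5 CPM in 482N1, at 2.81, 2.63 and 1.63 in B16F10-BrM and at 6.73, 3.48 and 5.61 in E0771-BrM. All 3 lines were separate, with B16F10-BrM lowest. B16F10-BrM was 6.46-fold below 482N1 (log2 fold change -2.68 ± 0.25 (SE), edgeR adjusted p = 3.32e-13) and E0771-BrM 2.89-fold below it (log2 fold change -1.54 ± 0.22 (SE), edgeR adjusted p = 3.95e-08). E0771-BrM exceeded B16F10-BrM by 2.23-fold (log2 fold change 1.14 ± 0.29 (SE), edgeR adjusted p = 0.000436), a call lost in the B-only fit (adjusted p = 0.224), where the log2 value against 482N1 was -2.20. Its close relative Lrp6 was nearly level, at 65.3 ± 5.15, 66.9 ± 0.570 and 56.2 ± 4.94 CPM. The first 2 of these lines did not differ by the test (log2 fold change 0.04 ± 0.09). The lower value of E0771-BrM was called against 482N1 (log2 -0.22 ± 0.09, edgeR adjusted p = 0.0323, libraries overlapping) and against B16F10-BrM (log2 -0.25 ± 0.09, edgeR adjusted p = 0.0135), and the call against 482N1 was lost when library A or C of 482N1 or library B or C of E0771-BrM was left out, with adjusted p from 0.0867 to 0.152, in the B-only fit (0.29), with upper-quartile scaling (0.0549) or with the 2 lines alone in the fit (0.0538). The call against B16F10-BrM was lost without library B of E0771-BrM (0.0831).

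Levels per kilobase were divided by the length of all annotated exons of a gene, which can exceed that of the transcripts made. On this scale the 6 Frizzled genes in the table summed to 10.5 ± 0.392 CPM per kb in 482N1 and 5.90 ± 0.815 in B16F10-BrM, against 1.92 ± 0.259 in E0771-BrM. Shares within such family sums are given as a description, with no test. Fzd2 gave 42.8% ± 4.20 of it in 482N1 and 30.4% ± 1.31 in B16F10-BrM, against 49.7% ± 8.95 in E0771-BrM. Fzd7 gave 33.7% ± 2.34 in B16F10-BrM and 9.17% ± 2.68 in 482N1. Fzd3 gave 13.6% ± 0.486 in B16F10-BrM. In CPM without this scaling, Fzd3 had the highest mean there, at 10.3 ± 1.51 against 9.04 ± 1.67 for Fzd7 and 6.60 ± 1.17 for Fzd2. The order of shares in that line thus rests on the exon lengths used, 12804, 4532 and 3663 bases for Fzd3, Fzd7 and Fzd2. Fzd5 gave 35.4% ± 2.67 in E0771-BrM, 21.3% ± 0.297 in 482N1 and 3.44% ± 0.712 in B16F10-BrM. In E0771-BrM, too, the lead of Fzd2 rests on the lengths, as mean CPM was 4.67 ± 0.415 for Fzd5 and 3.52 ± 1.02 for Fzd2.

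Of the 4 cytoplasmic genes (Dvl1, Dvl2, Dvl3 and Axin1), 0 were called between E0771-BrM and 482N1 with edgeR, where 78.1% of all genes were, also 0 at an unadjusted p under 0.05 and 0 with DESeq2, and 1 (Dvl1) was with limma-voom. Between B16F10-BrM and 482N1, 1 of 4 (Dvl2) was called, against 77.8% of all genes. Between E0771-BrM and B16F10-BrM, 2 of 4 were, Dvl1 higher and Dvl2 lower, against 73.7% of all genes. The scaffold Axin1 was at 27.01 ± 3.57, 26.3 ± 2.998 and 28.97 ± 3.27 CPM in 482N1, B16F10-BrM and E0771-BrM, and Dvl3 at 17.8 ± 1.76, 16.7 ± 2.64 and 19.9 ± 1.49, and neither gene was called in any pair. Their largest log2 fold changes were 0.14 ± 0.12 and 0.25 ± 0.14 (SE), both in E0771-BrM against B16F10-BrM. Dvl3 did pass there without library B of B16F10-BrM (log2 0.38, adjusted p = 0.0318). Dvl2, whose exons overlap those of Acadvl on the other strand, was at 37.7 ± 2.21, 47.2 ± 2.77 and 39.6 ± 3.27 CPM, higher in B16F10-BrM than in 482N1 (log2 fold change 0.33 ± 0.10 (SE), edgeR adjusted p = 0.00453). Acadvl went the other way, at 45.2 ± 5.65 CPM in 482N1 and 23.9 ± 3.35 in B16F10-BrM. E0771-BrM was below B16F10-BrM in Dvl2 (log2 fold change -0.26 ± 0.10 (SE), edgeR adjusted p = 0.0248), a call lost without library A or B of B16F10-BrM or library C of E0771-BrM (adjusted p = 0.0772, 0.0798 and 0.142) or in the B-only fit (0.246). Dvl1 was at 16.5, 28.5 and 12.5 CPM in 482N1, so library B stood above the other two, against 13.97 ± 1.99 in B16F10-BrM and 26.2 ± 0.869 in E0771-BrM. E0771-BrM was 1.88-fold above B16F10-BrM (log2 fold change 0.90 ± 0.22 (SE), edgeR adjusted p = 0.00214). Without library B of 482N1, E0771-BrM was also called above 482N1 (log2 0.85). Without library C, B16F10-BrM was called below 482N1 (log2 -0.69), and in the B-only fit the log2 value of this pair was -1.02.

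In the nucleus, beta-catenin itself and Tcf7l2 set the lines apart. Ctnnb1, which encodes beta-catenin, was at 669.8, 621 and 607 CPM in 482N1, at 884, 958 and 978 in B16F10-BrM and at 205, 189 and 186 in E0771-BrM. The melanoma line was highest and the breast line lowest, without overlap. B16F10-BrM was 1.49-fold above 482N1 (log2 fold change 0.57 ± 0.07 (SE), edgeR adjusted p = 2.73e-10), and E0771-BrM was 3.27-fold below 482N1 (log2 fold change -1.71 ± 0.07 (SE), edgeR adjusted p = 2.47e-26) and 4.86-fold below B16F10-BrM (log2 fold change -2.28 ± 0.07 (SE), edgeR adjusted p = 3.11e-31). Per kilobase, Ctnnb1 had the highest level of all 58 members in each line (122 ± 6.37, 181 ± 9.54 and 37.2 ± 2.005 CPM per kb). Ctnnbip1, an inhibitor that keeps beta-catenin from TCF factors, was at 89.9 ± 1.37, 26.99 ± 1.27 and 66.5 ± 5.69 CPM, lowest in B16F10-BrM (log2 fold change -1.73 ± 0.10 (SE), edgeR adjusted p = 1.55e-21 against 482N1).

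Tcf7l2, a TCF factor that pairs with beta-catenin, was at 160.3, 173 and 178 CPM in 482N1, at 33.4, 37.4 and 35.4 in B16F10-BrM and at 30.5, 30.7 and 32.7 in E0771-BrM. 482N1 stood above the other lines, and those did not overlap either but were not called apart (log2 fold change -0.18 ± 0.10 (SE), edgeR adjusted p = 0.1003), although with upper-quartile scaling the adjusted p was 0.0467. 482N1 was 4.82-fold above B16F10-BrM (log2 fold change -2.27 ± 0.09 (SE), edgeR adjusted p = 9.14e-28) and 5.46-fold above E0771-BrM (log2 fold change -2.45 ± 0.09 (SE), edgeR adjusted p = 1.41e-28). Tcf7l1, often a repressor, was in contrast lowest in 482N1, at 21.5 ± 3.30 CPM against 31.5 ± 1.97 in B16F10-BrM (log2 fold change 0.55 ± 0.13 (SE), edgeR adjusted p = 0.000113) and 35.1 ± 4.57 in E0771-BrM (log2 fold change 0.71 ± 0.13 (SE), edgeR adjusted p = 1.86e-06). Tcf7 was low, at 2.06 ± 0.508, 3.03 ± 0.336 and 5.50 ± 1.07 CPM, and highest in E0771-BrM, although its call against B16F10-BrM (edgeR adjusted p = 0.00428) was lost in the B-only fit (0.0841). Of the per-kilobase sum of these 3 genes, Tcf7l2 made up 75.7% ± 3.76 in 482N1 and 30.5% ± 0.176 in B16F10-BrM, against 24.5% ± 2.22 in E0771-BrM. Tcf7l1 made up 21.3% ± 3.02, 60.7% ± 1.09 and 61.1% ± 4.06. In CPM without this scaling, Tcf7l2 and Tcf7l1 were at 35.4 ± 1.97 and 31.5 ± 1.97 in B16F10-BrM and at 31.3 ± 1.21 and 35.1 ± 4.57 in E0771-BrM. In B16F10-BrM the lead of Tcf7l1 thus rests on the exon lengths used, 8775 bases for Tcf7l2 and 3924 for Tcf7l1.

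Counted together, 7 of the 23 Wnt members were higher and 11 lower in B16F10-BrM than in 482N1, with a median log2 fold change of -0.46, where 77.8% of all genes tested were called and the median was -0.04. That median of the members was -0.17 without library B of 482N1 and -0.96 in the B-only fit. In E0771-BrM against 482N1, 4 were higher and 15 lower (median -1.71), with 78.1% of all genes called and a median of -0.04. In E0771-BrM against B16F10-BrM, 9 were higher and 9 lower (median 0.14), with 73.7% of all genes called and a median of 0.02. The share called was thus near that of all genes in each pair (78.3%, 82.6% and 78.3%). Libraries of the 2 lines compared did not overlap for 18, 17 and 19 of the 23 members in the order of comparisons above, where this held for 78.7%, 78.5% and 75.5% of all genes. In a joint test over the 3 lines 21 of 23 passed, against 92.1% of all genes. In 10 of 23, 482N1 was above both other lines (26.3% of all genes), in 5 B16F10-BrM was (21%) and in 2 E0771-BrM was (20.7%).

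Of 74 other Wnt pathway genes listed, 46 were measured. In B16F10-BrM against 482N1, 14 were higher and 26 lower (median log2 -0.35), in E0771-BrM against 482N1 8 and 27 (-0.34), and in E0771-BrM against B16F10-BrM 13 and 21 (-0.10). The shares called, 87%, 76.1% and 73.9%, compare with 77.8%, 78.1% and 73.7% of all genes, so that the last 2 were near the background. Porcn, the acyltransferase that Wnt ligands need for secretion, was at 32.02 ± 6.62 CPM in 482N1, 0.229 ± 0.311 in B16F10-BrM (log2 fold change -7.03 ± 0.37, edgeR adjusted p = 2.1e-17) and 0.702 ± 0.591 in E0771-BrM (log2 fold change -5.48 ± 0.31, edgeR adjusted p = 1.99e-16). The line with the most Porcn was thus the one with the most Wnt5a and Wnt7b. Lgr6, a receptor for R-spondins, was at 110.2 ± 6.81 CPM in 482N1 and 0.995 ± 0.238 in E0771-BrM (111-fold lower, edgeR adjusted p = 1.95e-34). Genes of planar polarity went in different directions. Prickle1 was at 171 ± 6.26 CPM in B16F10-BrM, 46.5-fold above 482N1 (edgeR adjusted p = 5.76e-37) and 42.3-fold above E0771-BrM (edgeR adjusted p = 1.72e-36). The polarity receptor Ptk7 had no count in B16F10-BrM and 9.28 ± 1.68 CPM in 482N1 (at least 80.9-fold higher, edgeR adjusted p = 3.25e-17). Vangl2 was at 23.7 ± 2.26 CPM in 482N1 and 3.75 ± 1.04 in E0771-BrM (6.33-fold lower, edgeR adjusted p = 6.15e-19).

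Of 30 listed target genes of beta-catenin and TCF, 14 were measured, with 4 higher and 8 lower in B16F10-BrM than in 482N1 (median log2 -0.73), 4 and 9 in E0771-BrM against 482N1 (-0.83), and 6 and 6 in E0771-BrM against B16F10-BrM (-0.09). The shares called were 85.7%, 92.9% and 85.7%, against 77.8%, 78.1% and 73.7% of all genes. Several of them are also targets of other pathways. Klf5, an epithelial transcription factor, was at 514 ± 34.3 CPM in 482N1, 0.607 ± 0.406 in B16F10-BrM (848-fold lower, edgeR adjusted p = 6.62e-43) and 26.4 ± 2.96 in E0771-BrM (19.5-fold lower, edgeR adjusted p = 3.77e-37). The Notch ligand Jag1 was at 158 ± 6.22, 4.51 ± 1.38 and 10.2 ± 0.781 CPM in the same order, lower in both (edgeR adjusted p = 2.5e-35 and 1.63e-32). Sox9 was 12.2-fold and the cyclin Ccnd1 2.91-fold lower in E0771-BrM than in 482N1 (edgeR adjusted p = 2.4e-36 and 5.57e-25). B16F10-BrM had the highest levels of the cell adhesion gene Nrcam, at 139 ± 13.03 CPM against 0.505 ± 0.233 in 482N1 (log2 fold change 8.07 ± 0.21, edgeR adjusted p = 1.05e-33) and 2.11 ± 1.09 in E0771-BrM (log2 fold change -6.03 ± 0.16, edgeR adjusted p = 2.17e-32), and of Lbh, at 383 ± 6.06 CPM against 53.8 ± 2.62 in 482N1 (log2 fold change 2.83 ± 0.08, edgeR adjusted p = 1.2e-33) and 19.2 ± 0.926 in E0771-BrM (log2 fold change -4.32 ± 0.09, edgeR adjusted p = 1.23e-38).

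In the TGF-beta and BMP pathways, the lines differed in their leading TGF-beta isoform. Tgfb1 was at 18.2, 25.2 and 20.5 CPM in 482N1, at 2.19, 0.627 and 1.86 in B16F10-BrM and at 3.68, 3.12 and 7.23 in E0771-BrM. 482N1 was highest and B16F10-BrM lowest, without overlap. It was 13.7-fold lower in B16F10-BrM (log2 fold change -3.72 ± 0.28 (SE), edgeR adjusted p = 3.13e-13) and 4.55-fold lower in E0771-BrM (log2 fold change -2.19 ± 0.24 (SE), edgeR adjusted p = 1.32e-09) than in 482N1, and 2.999-fold higher in E0771-BrM than in B16F10-BrM (log2 fold change 1.54 ± 0.35 (SE), edgeR adjusted p = 0.000232), this last call missing the threshold in the B-only fit (adjusted p = 0.0525). With those libraries E0771-BrM was at -3.005 (log2) against 482N1. Tgfb2 had the opposite order, at 2.32, 1.44 and 1.90 CPM in 482N1, at 18.02, 16.7 and 17.7 in B16F10-BrM and at 9.90, 9.24 and 9.48 in E0771-BrM. B16F10-BrM was highest and 482N1 lowest, without overlap. Tgfb2 was 9.25-fold higher in B16F10-BrM (log2 fold change 3.21 ± 0.22 (SE), edgeR adjusted p = 4.63e-18) and 5.05-fold higher in E0771-BrM (log2 fold change 2.33 ± 0.24 (SE), edgeR adjusted p = 3.07e-12) than in 482N1, and E0771-BrM was 1.83-fold below B16F10-BrM (log2 fold change -0.87 ± 0.17 (SE), edgeR adjusted p = 1.08e-05).

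Tgfb3 was low in all, at 3.18 ± 0.501, 3.81 ± 0.890 and 1.95 ± 0.771 CPM, and was called only between E0771-BrM and B16F10-BrM (log2 fold change -0.97 ± 0.32 (SE), edgeR adjusted p = 0.00697), a call lost without library B of E0771-BrM (0.0761), while in the B-only fit the log2 value was -1.81. The value against 482N1 (log2 fold change -0.70 ± 0.34 (SE), edgeR adjusted p = 0.0542) passed without library B of 482N1 or library A of E0771-BrM (0.0475 and 0.0292) and with limma-voom (0.0488), and its log2 value was -1.35 in the B-only fit (adjusted p = 0.0652). Of the per-kilobase sum of the 3 isoforms, Tgfb1 gave 76.6% ± 5.92 in 482N1 and 6.85% ± 3.38 in B16F10-BrM, against 28.6% ± 8.55 in E0771-BrM. Tgfb2 gave 6.05% ± 1.87, 67.97% ± 3.99 and 53.5% ± 9.58 in that order. The sums themselves were closer, at 5.49 ± 0.499, 4.45 ± 0.363 and 3.15 ± 0.601 CPM per kb.

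The activin and BMP ligand genes in the table, Inhba, Bmp4 and Bmp7, were present in 482N1, lower in E0771-BrM and without counts in B16F10-BrM. Other genes of these ligand classes were not analysed here. Inhba, the subunit of activin A, was at 59.1, 57.7 and 60.5 CPM in 482N1 and 6.22, 6.12 and 5.74 in E0771-BrM. Bmp4 was at 61.7, 58.9 and 52.5 CPM in 482N1 and 6.34, 5.04 and 7.73 in E0771-BrM. Bmp7 was closer between these lines, at 34.4, 33.1 and 34.5 CPM in 482N1 and 26.6, 25.4 and 23.8 in E0771-BrM. All 3 genes had no count in B16F10-BrM, and no library of one line overlapped another. Against B16F10-BrM, 482N1 was at least 515-fold higher in Inhba (edgeR adjusted p = 7.98e-32), at least 503-fold in Bmp4 (edgeR adjusted p = 9.27e-31) and at least 296-fold in Bmp7 (edgeR adjusted p = 1.34e-28). For E0771-BrM these folds were at least 52.5-fold (edgeR adjusted p = 1.55e-17), at least 55.5-fold (edgeR adjusted p = 4.39e-17) and at least 221-fold (edgeR adjusted p = 9.67e-27). Inhba and Bmp4 in 482N1 were 9.80-fold and 9.05-fold above E0771-BrM (log2 fold change -3.29 ± 0.14 and -3.18 ± 0.15, edgeR adjusted p = 3.59e-25 and 9.02e-24). Bmp7 differed less between them (log2 fold change -0.43 ± 0.12 (SE), edgeR adjusted p = 0.00204), and its call was lost in the B-only fit (0.17). Gdf11, a ligand close to myostatin, was at 3.22, 1.56 and 0.507 CPM in 482N1, at 26.8, 23.7 and 24.8 in B16F10-BrM and at 21.2, 17.997 and 28.9 in E0771-BrM. 482N1 lay below the other lines, which overlapped. Gdf11 was 14.2-fold higher in B16F10-BrM (log2 fold change 3.83 ± 0.29 (SE), edgeR adjusted p = 2.97e-10) and 12.9-fold higher in E0771-BrM (log2 fold change 3.68 ± 0.30 (SE), edgeR adjusted p = 7.42e-10). Without library A of 482N1 those log2 values were 4.56 and 4.42.

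All 4 storage and processing genes of the ligands were lower in B16F10-BrM, against 39.9% of all genes that were lower there than in 482N1. Ltbp1, which tethers latent TGF-beta to the matrix, was at 147, 160.1 and 149 CPM in 482N1, at 0.625, 0 and 0.699 in B16F10-BrM and at 49.2, 44.5 and 50.7 in E0771-BrM. The 3 lines did not overlap. 482N1 was 345-fold above B16F10-BrM (log2 fold change -8.33 ± 0.19 (SE), edgeR adjusted p = 1.41e-36) and 3.16-fold above E0771-BrM (log2 fold change -1.66 ± 0.10 (SE), edgeR adjusted p = 3.02e-20), and E0771-BrM was 109-fold above B16F10-BrM (log2 fold change 6.67 ± 0.22 (SE), edgeR adjusted p = 3.34e-30). Ltbp3, another such protein, was at 381, 326 and 354 CPM in 482N1, at 23.4, 29.5 and 28.3 in B16F10-BrM and at 17.4, 20.04 and 18.8 in E0771-BrM. 482N1 again stood far above, and E0771-BrM was lowest, without overlap. It was 13.1-fold higher in 482N1 than in B16F10-BrM (log2 fold change -3.71 ± 0.09 (SE), edgeR adjusted p = 7.85e-36) and 18.9-fold higher than in E0771-BrM (log2 fold change -4.23 ± 0.10 (SE), edgeR adjusted p = 4.61e-37), with the brain metastatic lines 1.44-fold apart (log2 fold change -0.52 ± 0.11 (SE), edgeR adjusted p = 4.3e-05).

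Ltbp4 was at 7.35, 11.2 and 9.13 CPM in 482N1, at 2.81, 2.26 and 2.10 in B16F10-BrM and at 8.88, 7.44 and 6.86 in E0771-BrM, so that only B16F10-BrM stood apart. It was 3.86-fold below 482N1 (log2 fold change -1.94 ± 0.25 (SE), edgeR adjusted p = 1.06e-09) and 3.23-fold below E0771-BrM (log2 fold change 1.68 ± 0.25 (SE), edgeR adjusted p = 6.7e-08), and the other pair was not called (log2 fold change -0.26 ± 0.21 (SE), edgeR adjusted p = 0.249). Bmp1, a protease that matures collagens and frees ligands from their inhibitors, was at 15.6, 11.1 and 9.25 CPM in 482N1, at 4.38, 2.51 and 2.21 in B16F10-BrM and at 36.04, 30.95 and 32.3 in E0771-BrM. Here the breast line was highest and the lines did not overlap. E0771-BrM was 2.76-fold above 482N1 (log2 fold change 1.47 ± 0.16 (SE), edgeR adjusted p = 8.59e-11) and 10.9-fold above B16F10-BrM (log2 fold change 3.42 ± 0.20 (SE), edgeR adjusted p = 1.36e-19), and 482N1 was 3.95-fold above B16F10-BrM (log2 fold change -1.95 ± 0.22 (SE), edgeR adjusted p = 1.56e-10). The 3 Ltbp genes summed to 54.7 ± 2.19 CPM per kb in 482N1 and 3.40 ± 0.280 in B16F10-BrM, against 7.77 ± 0.212 in E0771-BrM. Ltbp1 was 26.1% ± 2.16, 1.25% ± 1.09 and 57.96% ± 2.46 of that sum.

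**Figure D2:**
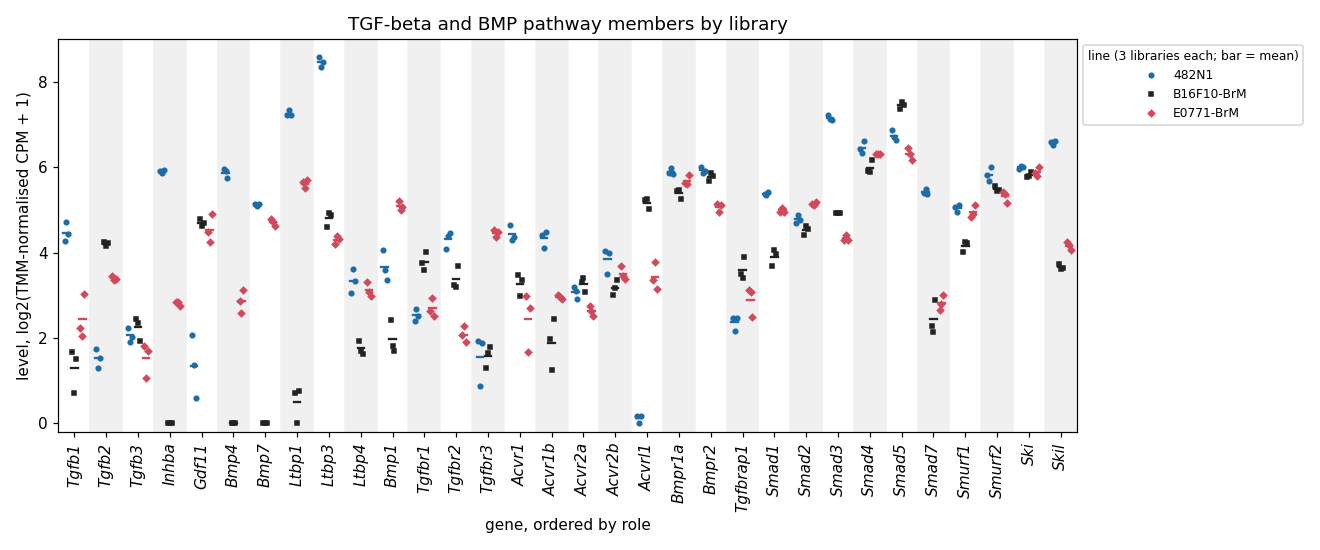
Level of each of the 32 TGF-beta and BMP pathway genes (x axis, ordered from ligands to inhibitors) as log2 of TMM-normalised CPM plus 1 (y axis) in the 3 libraries of each line, with a bar at the mean of those log values. Inhba, Bmp4 and Bmp7 sit at 0 in B16F10-BrM, Acvrl1 is near 0 in 482N1, and Ski lies at one level in all lines.

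Among the receptors, Acvrl1 had the largest fold differences. It encodes ALK1, a type I receptor known from endothelium that binds BMP9 and BMP10, and was at 0.129, 0 and 0.127 CPM (2 counts) in 482N1, at 36.7, 37.5 and 31.3 in B16F10-BrM and at 9.26, 12.8 and 7.85 in E0771-BrM. The lines were separate, with B16F10-BrM highest. Its ratio to 482N1 was 421 (95% counting interval 116 to 3484) in B16F10-BrM (edgeR adjusted p = 6.62e-27) and 120.1 (95% counting interval 32.9 to 997) in E0771-BrM (edgeR adjusted p = 1e-18), and E0771-BrM was 3.52-fold below B16F10-BrM (log2 fold change -1.81 ± 0.16 (SE), edgeR adjusted p = 1.99e-14). In the B-only fit, 482N1 had no count of it. Of 6 endothelial markers, 2 were in the table (Flt1 and Egfl7), and they went opposite ways between 482N1 and the other lines. Flt1 was at 93.6 ± 6.97 CPM in 482N1, had 1 count in B16F10-BrM and was at 6.17 ± 0.984 CPM in E0771-BrM. Egfl7 was, like Acvrl1, lowest in 482N1, at 2.89 ± 0.301 CPM against 7.51 ± 1.46 in B16F10-BrM and 30.04 ± 2.08 in E0771-BrM, which had the most of it. Their sum was 90.4 to 103.8, 5.83 to 8.44 and 35.3 to 37.4 CPM in that order of lines, and the part of endothelial character in the Acvrl1 result was not tested. Per kilobase, Acvrl1 was 43.02% ± 3.17 of the 5 type I receptor genes in B16F10-BrM, 17.2% ± 4.61 in E0771-BrM and 0.106% ± 0.0915 in 482N1. Bmpr1a made up 33.7% ± 2.001, 58.2% ± 3.99 and 49.5% ± 3.70. In CPM without this scaling, Bmpr1a (41.03 ± 3.20) was above Acvrl1 (35.2 ± 3.35) in B16F10-BrM. The lead of Acvrl1 there thus rests on the exon lengths used, 4265 bases for Acvrl1 and 6351 for Bmpr1a.

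Tgfbr2, the type II receptor that binds TGF-beta itself, was at 15.9, 20.1 and 21.04 CPM in 482N1, at 8.44, 8.15 and 11.9 in B16F10-BrM and at 3.17, 3.84 and 2.74 in E0771-BrM. It stepped down from line to line without overlap. B16F10-BrM was 2.002-fold below 482N1 (log2 fold change -1.002 ± 0.18 (SE), edgeR adjusted p = 1.75e-06) and E0771-BrM 5.84-fold below 482N1 (log2 fold change -2.54 ± 0.21 (SE), edgeR adjusted p = 2.77e-15) and 2.92-fold below B16F10-BrM (log2 fold change -1.54 ± 0.23 (SE), edgeR adjusted p = 4.23e-08). Its type I partner Tgfbr1 was instead highest in B16F10-BrM, at 12.9 ± 2.07 CPM against 4.79 ± 0.586 in 482N1 (log2 fold change 1.43 ± 0.21 (SE), edgeR adjusted p = 2.53e-08) and 5.51 ± 0.969 in E0771-BrM (log2 fold change -1.23 ± 0.20 (SE), edgeR adjusted p = 4.71e-07). Tgfbr3, the co-receptor betaglycan, was at 2.84, 0.842 and 2.66 CPM in 482N1, at 1.46, 2.13 and 2.45 in B16F10-BrM and at 21.95, 19.6 and 21.3 in E0771-BrM. E0771-BrM stood above the other lines, which overlapped and were not called apart (log2 fold change -0.07 ± 0.34 (SE), edgeR adjusted p = 0.857). It was 9.91-fold above 482N1 (log2 fold change 3.31 ± 0.24 (SE), edgeR adjusted p = 6.93e-17) and 10.4-fold above B16F10-BrM (log2 fold change 3.38 ± 0.24 (SE), edgeR adjusted p = 2.75e-17). In the B-only fit the log2 value of E0771-BrM against 482N1 was 4.51.

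Acvr1b, the activin type I receptor ALK4, was at 20.2, 16.2 and 21.4 CPM in 482N1, at 2.92, 1.38 and 4.43 in B16F10-BrM and at 6.98, 6.72 and 6.48 in E0771-BrM. B16F10-BrM was lowest and 482N1 highest, without overlap. B16F10-BrM was 6.64-fold below 482N1 (log2 fold change -2.71 ± 0.23 (SE), edgeR adjusted p = 9.63e-15), E0771-BrM 2.87-fold below 482N1 (log2 fold change -1.52 ± 0.20 (SE), edgeR adjusted p = 4.95e-09) and 2.31-fold above B16F10-BrM (log2 fold change 1.19 ± 0.26 (SE), edgeR adjusted p = 6.13e-05). Acvr1, the BMP type I receptor ALK2, was at 23.9, 18.8 and 19.8 CPM in 482N1, at 10.1, 6.90 and 9.20 in B16F10-BrM and at 6.85, 2.16 and 5.49 in E0771-BrM. The brain metastatic lines all but met at their nearest libraries, and 482N1 lay above both. 482N1 was 2.38-fold above B16F10-BrM (log2 fold change -1.24 ± 0.21 (SE), edgeR adjusted p = 3.56e-06) and 4.30-fold above E0771-BrM (log2 fold change -2.11 ± 0.23 (SE), edgeR adjusted p = 1.26e-09), with E0771-BrM 1.81-fold below B16F10-BrM (log2 fold change -0.87 ± 0.25 (SE), edgeR adjusted p = 0.00276). In the B-only fit, where E0771-BrM was at its lowest, the log2 values of that line were -3.11 against 482N1 and -2.02 against B16F10-BrM.

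The other receptors differed less. Bmpr1a, a BMP type I receptor, was at 58.6 ± 2.90, 41.03 ± 3.20 and 50.5 ± 4.22 CPM in 482N1, B16F10-BrM and E0771-BrM. Its lower value in E0771-BrM than in 482N1 (log2 fold change -0.22 ± 0.10 (SE), edgeR adjusted p = 0.0429) was lost with DESeq2, with upper-quartile scaling, with the 2 lines alone in the fit (adjusted p = 0.059, 0.0694 and 0.0596), and without library B of 482N1 or library A or B of E0771-BrM (adjusted p = 0.139, 0.136 and 0.142). Its higher value in E0771-BrM than in B16F10-BrM (log2 fold change 0.30 ± 0.10 (SE), edgeR adjusted p = 0.00729) was lost without library C of B16F10-BrM or of E0771-BrM and in the B-only fit (adjusted p = 0.051, 0.0675 and 0.153). Bmpr2, the BMP type II receptor, was at 59.8 ± 2.75 and 53.99 ± 3.70 CPM in 482N1 and B16F10-BrM and lower, at 32.7 ± 2.26, in E0771-BrM (log2 fold change -0.87 ± 0.10 (SE), edgeR adjusted p = 1.3e-10 against 482N1). The activin type II receptors Acvr2a (7.43 ± 0.778, 8.62 ± 1.06 and 5.20 ± 0.488 CPM) and Acvr2b (13.5 ± 2.75, 8.07 ± 1.11 and 10.4 ± 1.23 CPM) had log2 fold changes between -0.74 and 0.37 over the 3 pairs. The exons of Acvr2a overlap those of Orc4 on the other strand (25.6, 23.1 and 32.6 CPM). Its call in E0771-BrM against 482N1 (edgeR adjusted p = 0.0286) was lost without library A or B of 482N1 or library B or C of E0771-BrM (adjusted p from 0.0566 to 0.0896) and in the B-only fit (0.178). The lower Acvr2b of B16F10-BrM against 482N1 (edgeR adjusted p = 0.000368) was lost in the B-only fit (0.204). Its other pairs were not called, and passed without library B of 482N1 or A of E0771-BrM (E0771-BrM against 482N1, 0.0106 and 0.0369) and without library C of B16F10-BrM (E0771-BrM against B16F10-BrM, 0.0458). Tgfbrap1, a receptor-associated protein, was at 4.19 ± 0.606, 11.3 ± 2.26 and 6.60 ± 1.73 CPM and highest in B16F10-BrM (log2 fold change 1.43 ± 0.22 (SE), edgeR adjusted p = 1.72e-07 against 482N1). E0771-BrM exceeded 482N1 (edgeR adjusted p = 0.0128) except without library B of 482N1 or library A or B of E0771-BrM (0.0637, 0.0712 and 0.057).

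Of the SMAD genes, Smad3 differed most and its close relative Smad2 little. Smad3 was at 149, 139.7 and 137 CPM in 482N1, at 29.7, 29.4 and 29.2 in B16F10-BrM and at 18.7, 20.3 and 18.6 in E0771-BrM. 482N1 stood above and E0771-BrM below, without overlap. 482N1 was 4.82-fold above B16F10-BrM (log2 fold change -2.27 ± 0.09 (SE), edgeR adjusted p = 4.65e-27) and 7.40-fold above E0771-BrM (log2 fold change -2.89 ± 0.10 (SE), edgeR adjusted p = 4.23e-30), and E0771-BrM was 1.54-fold below B16F10-BrM (log2 fold change -0.62 ± 0.11 (SE), edgeR adjusted p = 1.58e-06). Smad2 was at 26.6 ± 1.95, 22.2 ± 1.79 and 34.3 ± 0.863 CPM, and highest in E0771-BrM (log2 fold change 0.37 ± 0.12 (SE), edgeR adjusted p = 0.00406 against 482N1, lost in the B-only fit, 0.314). Its lower value in B16F10-BrM than in 482N1 (log2 fold change -0.27 ± 0.12 (SE), edgeR adjusted p = 0.0417) was lost without library B or C of 482N1 or library A or C of B16F10-BrM (adjusted p from 0.0589 to 0.172), with DESeq2 (0.0601), with upper-quartile scaling (0.117) and with the 2 lines alone in the fit (0.051). Of the per-kilobase sum of Smad2 and Smad3, Smad3 gave 89.4% ± 0.992 in 482N1 and 67.8% ± 1.92 in B16F10-BrM, against 46.9% ± 1.76 in E0771-BrM, with the sum at 28.6 ± 0.962, 7.84 ± 0.170 and 7.37 ± 0.116 CPM per kb.

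Smad4, the partner of both branches, was at 87.3 ± 8.53, 62.6 ± 7.15 and 78.1 ± 0.192 CPM, lowest in B16F10-BrM (log2 fold change -0.48 ± 0.09 (SE), edgeR adjusted p = 7.09e-06 against 482N1). E0771-BrM and 482N1 were not called apart (edgeR adjusted p = 0.1002) but passed without library B of 482N1 (0.0351). On the BMP side, Smad5 was highest in B16F10-BrM, at 175 ± 10.3 CPM against 106 ± 9.25 in 482N1 (log2 fold change 0.71 ± 0.08 (SE), edgeR adjusted p = 8.23e-11) and 78.8 ± 7.43 in E0771-BrM (log2 fold change -1.15 ± 0.08 (SE), edgeR adjusted p = 4.78e-17). Smad1 was lowest there, at 14.1 ± 1.97 CPM against 40.7 ± 0.771 in 482N1 (log2 fold change -1.54 ± 0.12 (SE), edgeR adjusted p = 1.04e-15) and 30.7 ± 1.25 in E0771-BrM (log2 fold change 1.13 ± 0.13 (SE), edgeR adjusted p = 4.23e-11). E0771-BrM was also below 482N1 in Smad1 (edgeR adjusted p = 0.00133), though not in the B-only fit (0.165). Smad5 was therefore 91.3% ± 0.677 of the per-kilobase sum of Smad1 and Smad5 in B16F10-BrM, against 68.7% ± 2.08 in 482N1 and 68.3% ± 2.14 in E0771-BrM.

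**Figure D3:**
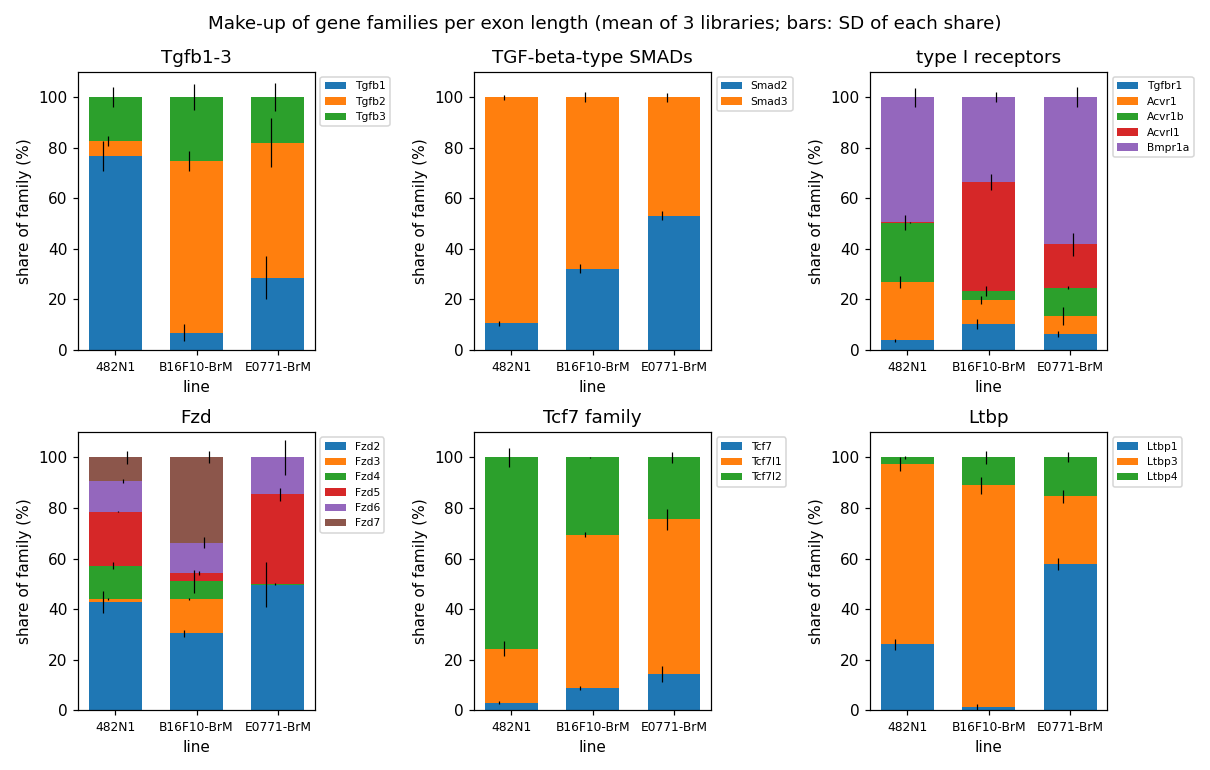
Share of each gene in the summed CPM per kilobase of its family (y axis, percent, mean of 3 libraries, thin lines SD) in each line (x axis) for 6 families. Tgfb1 makes up most of the TGF-beta isoforms in 482N1 and Tgfb2 most in the other lines. Tcf7l2 leads its family in 482N1 and Tcf7l1 in the other lines, in B16F10-BrM only after scaling by length. Smad3 goes from 89.4% in 482N1 to 46.9% in E0771-BrM.

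Smad7 and Skil, inhibitors of SMAD signalling that TGF-beta is known to induce, were highest in 482N1. Smad7, which blocks the receptors, was at 40.9, 44.1 and 40.4 CPM in 482N1, at 3.85, 3.39 and 6.41 in B16F10-BrM and at 5.33, 5.999 and 6.98 in E0771-BrM. 482N1 lay far above the other lines, which overlapped and were not called apart (log2 fold change 0.42 ± 0.21 (SE), edgeR adjusted p = 0.0716). That pair passed without library C of B16F10-BrM or library A of E0771-BrM (adjusted p = 0.00431 and 0.0491). 482N1 was 9.18-fold above B16F10-BrM (log2 fold change -3.20 ± 0.17 (SE), edgeR adjusted p = 1.92e-22) and 6.85-fold above E0771-BrM (log2 fold change -2.77 ± 0.16 (SE), edgeR adjusted p = 1.43e-20). Skil, which encodes the SMAD co-repressor SnoN, was at 95.96, 90.99 and 97.6 CPM in 482N1, at 12.3, 11.3 and 11.5 in B16F10-BrM and at 18.02, 17.04 and 15.7 in E0771-BrM. 482N1 was highest and B16F10-BrM lowest, without overlap. It was 8.10-fold above B16F10-BrM (log2 fold change -3.01 ± 0.11 (SE), edgeR adjusted p = 1.81e-28) and 5.61-fold above E0771-BrM (log2 fold change -2.49 ± 0.11 (SE), edgeR adjusted p = 1.2e-25), with E0771-BrM 1.45-fold above B16F10-BrM (log2 fold change 0.53 ± 0.13 (SE), edgeR adjusted p = 0.00036).

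Its relative Ski was called in no pair, at 62.9 ± 1.56, 55.5 ± 2.51 and 58.4 ± 4.31 CPM and with log2 fold changes of -0.18 ± 0.09, -0.11 ± 0.09 and 0.07 ± 0.09 (SE). Skil was 46.4% ± 1.43 of the per-kilobase sum of the pair in 482N1 and 10.8% ± 0.773 in B16F10-BrM, against 14.3% ± 1.59 in E0771-BrM. In CPM without this scaling, Skil (94.8 ± 3.44) was above Ski (62.9 ± 1.56) in 482N1. The ubiquitin ligase Smurf1 was lowest in B16F10-BrM, at 16.9 ± 1.58 CPM against 32.02 ± 1.83 in 482N1 (log2 fold change -0.92 ± 0.13 (SE), edgeR adjusted p = 6.91e-09) and 30.1 ± 3.40 in E0771-BrM (log2 fold change 0.83 ± 0.13 (SE), edgeR adjusted p = 9.33e-08). Smurf2 was highest in 482N1, at 55.9 ± 6.56 CPM against 44.1 ± 2.16 in B16F10-BrM (log2 fold change -0.34 ± 0.10 (SE), edgeR adjusted p = 0.00284) and 39.03 ± 3.66 in E0771-BrM (log2 fold change -0.52 ± 0.11 (SE), edgeR adjusted p = 2.12e-05), and both calls were lost in the B-only fit (adjusted p = 0.251 and 0.112).

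Of the 32 TGF-beta and BMP members, 6 were higher and 21 lower in B16F10-BrM than in 482N1 (median log2 fold change -0.83), where 38% of all genes tested were higher and 39.9% lower. In E0771-BrM against 482N1, 7 were higher and 18 lower (median -0.43), against 37.7% and 40.4% of all genes. In E0771-BrM against B16F10-BrM, 15 were higher and 12 lower (median 0.31), against 37.2% and 36.5%. The shares called, 84.4%, 78.1% and 84.4%, compare with 77.8%, 78.1% and 73.7% of all genes. Libraries did not overlap for 28, 27 and 29 of 32 (78.7%, 78.5% and 75.5% of all genes), and 31 of 32 passed the joint test (92.1% of all genes). In 15 of 32, 482N1 was above both other lines (26.3% of all genes), in 5 B16F10-BrM was (21%) and in 3 E0771-BrM was (20.7%). In 14 of 32, B16F10-BrM was below both others (22.5% of all genes), in 7 E0771-BrM was (21.1%) and in 4 482N1 was (24.2%). Comparisons share libraries, so their counts are not independent.

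**Figure D4:**
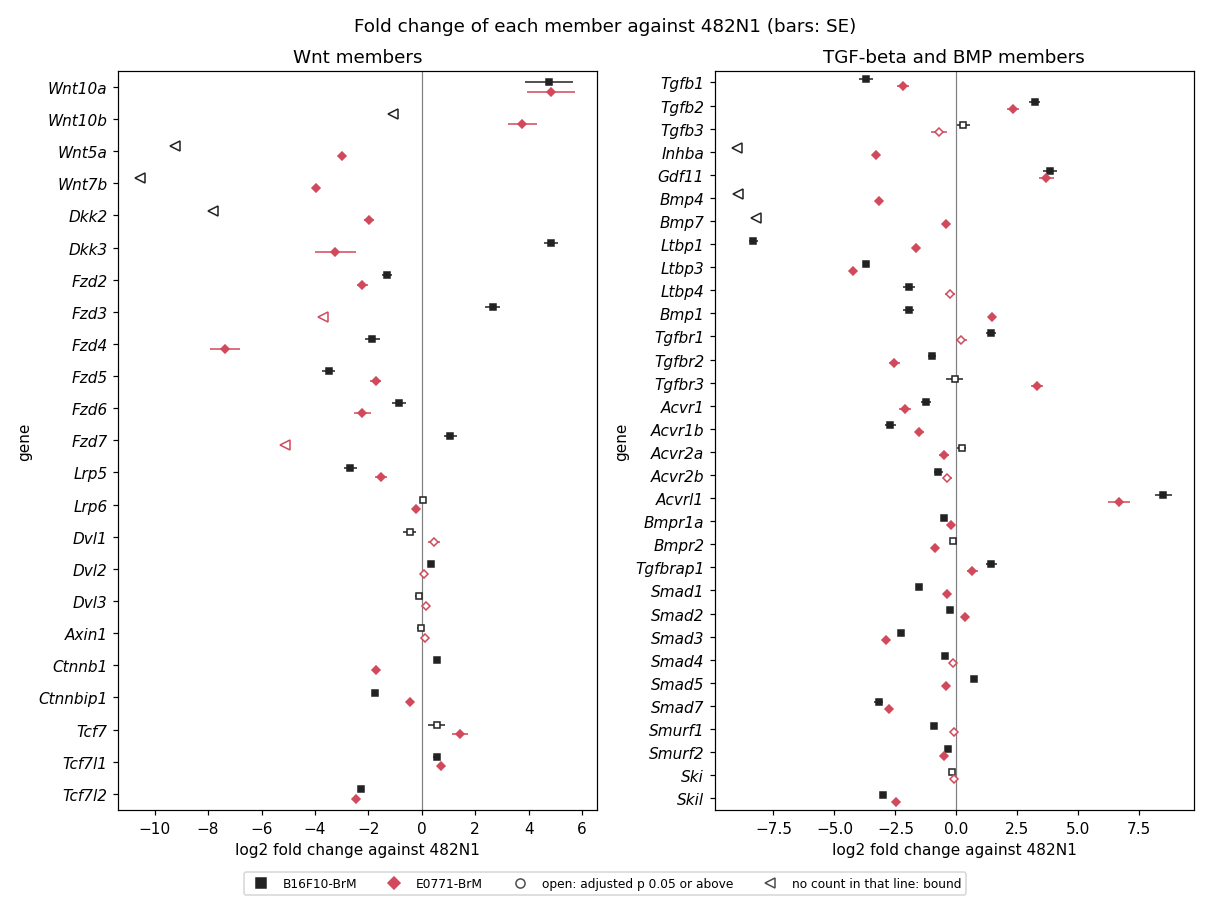
Log2 fold change of each member (y axis) in B16F10-BrM and E0771-BrM against 482N1 (x axis) with SE bars, Wnt members left and TGF-beta and BMP members right, where open symbols mark an adjusted p of 0.05 or above and triangles the bound for a line with no count. Most called points lie left of 0, among them the bounds of Wnt7b, Wnt5a, Inhba, Bmp4, Bmp7 and Dkk2 in B16F10-BrM, and Acvrl1, Gdf11, Tgfb2 and Wnt10a lie right of 0 in both lines.

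Of 83 other gene symbols of the TGF-beta and BMP pathways listed, where Hjv stands under its old name Hfe2 too, 46 were measured. In B16F10-BrM against 482N1, 14 were higher and 26 lower (median log2 -0.43), in E0771-BrM against 482N1 20 and 22 (-0.05), and in E0771-BrM against B16F10-BrM 24 and 11 (0.33). The shares called were 87%, 91.3% and 76.1%, against 77.8%, 78.1% and 73.7% of all genes, the last near the background. Pmepa1, Thbs1, Itgb6 and Tgif1 stand both on this list and on that of TGF-beta targets. Other pathway and target lists here share symbols as well, so counts of the lists are not independent. Lefty1, a secreted inhibitor of Nodal, was at 34.6 ± 3.90 CPM in 482N1 and 5.88 ± 0.984 in E0771-BrM. B16F10-BrM had none of it, at least 302-fold less than 482N1 (edgeR adjusted p = 5.54e-27), although its close copy Lefty2 could share its reads. Nbl1, a BMP antagonist, also had none there, with 5.03 ± 1.35 CPM in 482N1 (at least 43.8-fold higher, edgeR adjusted p = 3.94e-14) and 15.2 ± 3.09 in E0771-BrM (at least 133-fold higher, edgeR adjusted p = 2.31e-20). Fstl1, a secreted relative of follistatin, was low in 482N1 (0.549 ± 0.273 CPM) and at 57.8 ± 3.88 in B16F10-BrM (105-fold higher, edgeR adjusted p = 1.91e-32) and 89.4 ± 3.68 in E0771-BrM (163-fold higher, edgeR adjusted p = 1.03e-34). The fibrillin Fbn1, to which Ltbp proteins attach, had no count in 482N1 or B16F10-BrM and was at 19.7 ± 1.55 CPM in E0771-BrM (at least 157-fold above 482N1, edgeR adjusted p = 1.27e-21, and at least 172-fold above B16F10-BrM, edgeR adjusted p = 5.94e-22). Eng, the endoglin co-receptor that works with ALK1, was at 21.5 ± 3.56 CPM in E0771-BrM and 1.75 ± 0.562 in 482N1 (log2 fold change 3.61 ± 0.21, edgeR adjusted p = 3.73e-21).

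Of 40 listed symbols of TGF-beta target genes, where Ccn1 and Ccn2 stand under both their old and new names, 28 were measured. In B16F10-BrM against 482N1, 5 were higher and 20 lower (median log2 -4.47, or -3.32 with genes without counts at their bound), in E0771-BrM against 482N1 7 and 18 (-1.70), and in E0771-BrM against B16F10-BrM 19 and 9 (1.20). The shares called were 89.3%, 89.3% and 100%, against 77.8%, 78.1% and 73.7% of all genes, with 39.9% and 40.4% of all genes lower in the first 2 comparisons. Pmepa1, an induced inhibitor of the pathway, was at 528 ± 18.3 CPM in 482N1, at 24.9 ± 1.76 in B16F10-BrM and at 0.125 ± 0.125 in E0771-BrM (3 counts), where it was lower than in 482N1 (edgeR adjusted p = 2.15e-44) and in B16F10-BrM (edgeR adjusted p = 9.12e-29). Ccn2 and fibronectin (Fn1) were at 162 ± 4.52 and 520.2 ± 42.9 CPM in 482N1 and at 0.372 ± 0.217 and 0.996 ± 0.386 in E0771-BrM (435-fold and 523-fold lower, edgeR adjusted p = 9.78e-38 and 9.63e-43). Zeb1, a repressor of epithelial genes, was at 58.4 ± 1.98 CPM in 482N1 and 54.7 ± 2.28 in E0771-BrM and had 2 counts in B16F10-BrM (edgeR adjusted p = 5.22e-33 against 482N1). Snai1, another such repressor, was at 6.90 ± 1.41 CPM in E0771-BrM and 0.626 ± 0.335 in 482N1 (log2 fold change 3.43 ± 0.38, edgeR adjusted p = 4.45e-11). The mesenchymal cadherin Cdh2 was at 90.4 ± 9.45 and 90.9 ± 6.65 CPM in 482N1 and B16F10-BrM and 0.536 ± 0.141 in E0771-BrM (169-fold lower than in 482N1, edgeR adjusted p = 5.67e-35). The secreted Angptl4 had no count in B16F10-BrM, with 80.9 ± 1.42 CPM in 482N1. The keratins Krt8 and Krt18 were highest in 482N1 and at or near 0 in B16F10-BrM, and the part of epithelial character in these counts was not tested. Many of the listed genes also respond to other signals and mark epithelial or mesenchymal cells.

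Of 23 listed BMP target genes, 8 were measured, with 1 higher and 6 lower in B16F10-BrM than in 482N1 (median log2 -5.00), 1 and 7 in E0771-BrM against 482N1 (-1.21), and 5 and 2 in E0771-BrM against B16F10-BrM (4.38). Of all genes, 77.8%, 78.1% and 73.7% were called in these comparisons, against 87.5%, 100% and 87.5% of the 8. Id1, an inhibitor of differentiation factors that BMP signals induce directly, was at 193 ± 11.3 CPM in 482N1, 55.7 ± 5.45 in E0771-BrM and 0.705 ± 0.368 in B16F10-BrM. It was 274-fold lower in B16F10-BrM than in 482N1 (edgeR adjusted p = 2.14e-39) and 3.47-fold lower in E0771-BrM (edgeR adjusted p = 2.43e-23). Id3 was at 112 ± 8.36, 98.8 ± 8.61 and 5.99 ± 0.133 CPM in that order of lines, 18.7-fold lower in B16F10-BrM than in 482N1 (edgeR adjusted p = 1.22e-33) and 16.5-fold higher in E0771-BrM than in B16F10-BrM (edgeR adjusted p = 1.77e-32). Runx2 was at 36.1 ± 1.32, 13.9 ± 1.65 and 0.470 ± 0.247 CPM (76.8-fold lower in B16F10-BrM than in 482N1, edgeR adjusted p = 1.29e-27). These 3 genes were highest in 482N1 and lowest in B16F10-BrM. Dlx2, a homeobox factor, was instead highest in E0771-BrM, at 15.7 ± 1.06 CPM against 9.502 ± 1.20 in 482N1 (1.65-fold higher, edgeR adjusted p = 0.00039), with 3 counts in B16F10-BrM, and Vangl2, also on this list, was highest in B16F10-BrM (39.1 ± 2.31 CPM). In the B-only fit, 5 of the 8 genes were called in E0771-BrM against 482N1 in place of 8.

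The 3 genes that matched by symbol alone belong to neither pathway. Ctnnbl1, a spliceosome-associated protein named for its resemblance to beta-catenin, was at 67.2 ± 4.90, 64.4 ± 2.91 and 11.9 ± 2.11 CPM and lower in E0771-BrM (log2 fold change -2.49 ± 0.12 (SE), edgeR adjusted p = 5.26e-24 against 482N1). Bmp2k, a kinase that acts on clathrin adaptors, was at 13.1 ± 1.02, 14.1 ± 1.25 and 52.2 ± 1.05 CPM, and higher in E0771-BrM (log2 fold change 1.99 ± 0.12 (SE), edgeR adjusted p = 9.82e-20 against 482N1). Tgfb1i1, the focal adhesion protein Hic-5, was low, at 1.17 ± 0.141 CPM in 482N1, 1 count in B16F10-BrM and 2.55 ± 0.366 CPM in E0771-BrM. Its ratio to B16F10-BrM was 30.6 (95% counting interval 5.05 to 1250.2) in 482N1 (edgeR adjusted p = 1.06e-05) and 66.9 (95% counting interval 11.6 to 2685) in E0771-BrM (edgeR adjusted p = 2.92e-09). Without library B of B16F10-BrM, which held that count, fitted log2 values that rest on edgeR's prior count went from -4.47 to -6.30 and from 5.59 to 7.42. Its call between E0771-BrM and 482N1 (edgeR adjusted p = 0.00982) was lost in the B-only fit (0.119).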

How the data were processed

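The authors deposited unnormalised read counts, 1 row for each gene symbol, from poly(A)-selected, strand-specific RNA-seq of 3 lines with 3 libraries each. FastQC, TopHat2 2.0.10, Bowtie 1.0.0, SAMtools 0.1.19, Cufflinks 2.2.1 and build GRCm39 are named, per the submitters' processing notes. The counting tool, annotation, use of strand and choice of listed genes are not given in the sources used here. Members and gene lists were chosen with earlier results of these data known.

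Counts were fitted with edgeR 4.0.16 (R 4.3.3): TMM factors, filterByExpr (11037 of 11046 genes kept, all 58 members among them), a quasi-likelihood model over all 9 libraries with line as the only term, contrasts between lines, and Benjamini-Hochberg adjustment over all genes at 0.05. A joint F test over the 3 lines called 92.1% of all genes, 21 of 23 Wnt and 31 of 32 TGF-beta and BMP members. The fit was tested on simulated data. No 2 libraries of a line agreed within sampling noise, so none was counted as a duplicate. Values in every library are given for the 12 Wnt and 18 TGF-beta and BMP members with the widest span of line means of log2(CPM + 1) among those past the joint test, and other members are given by role. Of each list, up to 4 called genes per comparison with a mean of at least 5 CPM in 1 line could be named, by absolute log2 fold change, and some are not reported here. Levels per kilobase used exon lengths of a mouse GRCm38 annotation, as lengths only, and promoter windows came from RefSeq GRCm38.p6. List medians were the same with genes without counts at their bound, except where both are given. Alternatives were DESeq2 1.42.0, limma-voom (limma 3.58.1), other scaling factors, filters and sets of libraries.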

Additional observations from a re-analysis of the deposited data

How the results depend on the processing

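Of 141 called member comparisons, 121 kept their call and direction under all 19 alternatives, 20 lost the call under at least 1 and 0 reversed. Of 33 that were not called, 11 passed under at least 1 alternative and 7 changed sign. Counts of called members ranged over the alternatives from 16 to 19, 15 to 20 and 16 to 19 for Wnt and from 25 to 27, 20 to 26 and 26 to 28 for TGF-beta and BMP genes, in B16F10-BrM against 482N1, E0771-BrM against 482N1 and E0771-BrM against B16F10-BrM. Where a line is left with 1 library, it is assumed to vary like the others.

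All sign changes were in values that did not pass, and their cause was not tested. With upper-quartile scaling, the log2 fold change of B16F10-BrM against 482N1 was 0.0238 for Axin1 and the median of all genes 0.0238, and the median of E0771-BrM against B16F10-BrM was -0.0184. With limma-voom, Tgfbr3 in B16F10-BrM against 482N1 was 0.0751. Leaving out each library in turn gave, for B16F10-BrM against 482N1, -0.11 to 0.0746 for Axin1, -0.22 to 0.00433 for Dvl3, -0.0288 to 0.0775 for Lrp6 and -0.46 to 0.20 for Tgfbr3, and for E0771-BrM against B16F10-BrM, -0.21 to 0.56 for Wnt10a. With only library B of 482N1 and E0771-BrM, B16F10-BrM against 482N1 was 0.11 for Axin1, 0.0563 for Dvl3 and 1.23 for Tgfbr3, E0771-BrM against 482N1 was -0.11 for Dvl1, and E0771-BrM against B16F10-BrM was -0.0137 for Ski and -1.06 for Wnt10a. With those libraries 5 BMP target genes were called in E0771-BrM against 482N1 in place of 8, with fewer samples fitted. With limma-voom, Dvl1 in E0771-BrM against 482N1 passed (log2 0.53, adjusted p = 0.00746).

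Over all genes the library letters showed no general pairing, with deviations of libraries of the same letter correlated at -0.0099 to 0.0898, all under 0.1. Such a correlation cannot show an effect of the letter on some genes only. Summed over Dct, Pmel and Tyrp1, library B was below A and C in both 482N1 and E0771-BrM. With the letter as a replicate block, 18, 19 and 18 Wnt members and 27, 25 and 27 TGF-beta and BMP members were called, the counts of the fit without it, and 8595, 8623 and 8162 of all genes against 8592, 8622 and 8131. Depth limits the members with few counts in a line, Wnt10a, Wnt10b, Dkk3, Fzd4, Acvrl1 and Tgfb1i1, whose ratios have wide intervals.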
